A study of Mus musculus with 16 samples.

Results

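The mitochondrial mRNAs mt-Nd3 and mt-Nd4l/mt-Nd4 carried 20 of the 302 footprints in the deposited lists of RNase footprinting in mouse heart, 12 of 178 called in *Lrpprc* controls and 8 of 124 called in *Lrpprc* knockouts. A footprint was counted when it lay on the plus strand and its largest overlap with a transcript of the same strand, at least 1 nt, was with mt-Nd3 or with the joined mt-Nd4l and mt-Nd4 frames. On mt-Nd3 there were 2 control-called footprints and 0 knockout-called ones. On mt-Nd4l/mt-Nd4 there were 10 control-called and 8 knockout-called footprints, of which 1 control-called footprint lay in the mt-Nd4l frame and all others in the mt-Nd4 frame.

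The control mice were *Lrpprc* loxP/loxP and the knockouts *Lrpprc* loxP/loxP,Cre+, on the C57BL/6N background and aged 12 weeks, so that both groups carried the floxed alleles and the knockouts alone carried Cre, which deletes the gene in heart and skeletal muscle. The promoter behind Cre is not named in the sources used here. Isolated heart mitochondria received 1 of 3 nucleases or a mock digestion, for a total of 4 libraries in each genotype. The nucleases were RNase A, used at 10 U/µl, which cuts after pyrimidines, RNase T1, used at 0.1 U/µl, which cuts after guanines in single strands, and RNase If, used at 0.01 U/µl, which cuts without regard to sequence. The series also labels 4 libraries each of *Slirp* controls and knockouts, not analysed here. The 4 libraries of a genotype were combined by the authors into 1 track, with technical replicates pooled, so there is no error between mice, the number of hearts behind a track is not given in the sources used here, and no difference between the tracks was tested. The lists hold no read counts, and the depth behind each footprint is unknown.

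The 3 genes encode subunits of respiratory complex I (NADH dehydrogenase), which passes electrons from NADH to ubiquinone and pumps protons across the inner mitochondrial membrane. ND3, ND4L and ND4 lie in its membrane arm, where ND4 forms one of the proton-pumping modules. The ND4L and ND4 proteins are made from a single mature mRNA whose reading frames overlap, as are ATP8 and ATP6. LRPPRC is a pentatricopeptide repeat protein that binds mitochondrial mRNAs in a complex with SLIRP and is known to be needed for their stability, polyadenylation and coordinated translation.

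On mm10, mt-Nd3 (ENSMUSG00000064360.1) spans chrM:9459-9806 of the plus strand, a frame of 348 nt that opens with ATT. The tRNA genes mt-Tg and mt-Tr flank it. The mt-Nd4l frame (ENSMUSG00000065947.3) spans chrM:9877-10173 over 297 nt and the mt-Nd4 frame (ENSMUSG00000064363.1) chrM:10167-11544 over 1378 nt. Both open with ATG and together they cover 1668 nt. The last 7 nt of mt-Nd4l are the first 7 nt of mt-Nd4. The mt-Nd4 frame holds 459 codons and 1 further nucleotide, and such incomplete stop codons are known to be completed by polyadenylation. The annotation gives neither mRNA an intron, and all 20 footprints lay inside coding sequence.

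The sequences that follow are those of mt-Nd3, of the frame overlap with the footprints nearest to it, of the places where footprints of both lists met, and of the deepest and outermost footprints of mt-Nd4l/mt-Nd4. All are read 5′ to 3′ from the mm10 mitochondrial genome of RefSeq on the plus strand, the sense of these mRNAs, with T for U. Capitals mark the footprint in the lines for mt-Nd3, and lower case its 3 nt flanks.
mt-Nd3, control-called, chrM:9506-9515: aacGCTAATTCTAgtt
mt-Nd3, control-called, chrM:9566-9577: tccATATGAATGCGGatt

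In the next lines capitals mark the frame overlap (the start codon of mt-Nd4 and the stop codon of mt-Nd4l lie within it) and then the footprints closest to it, the first of which is also the first footprint on the mRNA.
Frame overlap, chrM:10167-10173: aacctactacaATGCTAAaaattattcttc
mt-Nd4l, control-called, chrM:10121-10130: tttCAAACACGTAcgg
mt-Nd4, knockout-called, chrM:10194-10204: ctaATGCTACTACCact
mt-Nd4, control-called, chrM:10218-10232: ctaTCAAGCCCTAAAAAAacc

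Where a control-called and a knockout-called footprint shared nucleotides, capitals mark the shared ones, and in the last of these lines they mark the last nucleotide of a knockout-called footprint and the first of the control-called footprint that directly follows it.
Shared at chrM:10866-10871: tctagcagctATTCTTctaaaatt
Shared at chrM:10875-10875: gctattcttctaAaattaggtagt
Shared at chrM:11148-11154: ctcctattcTGCCTAGcaaactcc
Adjoining at chrM:11406-11407: ataattattaccACccaacgcggc

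Capitals mark whole footprints again in the last lines, which hold the deepest control-called footprint of mt-Nd4l/mt-Nd4 and the last footprint on the mRNA.
mt-Nd4, control-called, chrM:11148-11174: TGCCTAGCAAACTCCAACTACGAACGG
mt-Nd4, control-called, chrM:11407-11414: ccaCCCAACGCggc

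Each footprint comes with 2 deposited scores of the track on which it was called. The C score divides the highest 5′ coverage among the nuclease digestions by that of the mock digestion, with 1 added to both, and takes log10. Coverage is normalized to library size. A negative central C score thus means fewer ends, relative to library size, inside the footprint after digestion than without it. Because of the added 1, a C score near 0 can come from equal coverage or from little coverage in both, and the lists do not separate these. The F score is the central accessibility over the left flank plus that over the right flank. A span as accessible as its flanks has an F score of 2, and a lower F score is a deeper footprint. Percentages of the accessibility of the flanks restate the F score divided by 2, the mean of the ratios to the left and right flank. Control-called footprints are those whose F score was higher on the knockout track, and knockout-called footprints those found on the knockout track and deeper there, so the list to which a footprint belongs already carries the direction of its change.

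On mt-Nd3 both control-called footprints lay in the 5′ part of the frame. The first covered nt 48 to 57 of the frame, in codons 16 to 19, with a central C score of -0.042 and an F score of 0.736. The second covered nt 108 to 119, in codons 36 to 40, with a central C score of -0.329 and an F score of 0.460. The second was among the deepest of the whole list, as only 3 of the 178 control-called footprints had a lower F score, whereas the first ranked 58. Its central accessibility was 0.469 of the mock value and 23.0% of that of its flanks. The 2 footprints cover 22 nt, or 6.32% of mt-Nd3, and the 229 nt that follow, up to the end of the frame, were free of footprints in both lists. The knockout-called list held 0 footprints on mt-Nd3, with an exact 95% Poisson upper limit of 10.6 per kb, above the 6.26 per kb found for all 13 mRNAs and rRNAs, so a count of 0 on a transcript this short does not place it below the others.

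The mt-Nd4l frame, which encodes one of the smallest subunits of complex I, carried 1 footprint in the control-called list, or 3.37 per kb (exact 95% Poisson interval 0.0852 to 18.8), against 9.94 per kb on all 13 mRNAs and rRNAs. The interval covers that density, so a frame of 297 nt is too short to be set apart from the others. Its first 244 nt held no footprint of either list. The footprint, control-called at chrM:10121-10130 in codons 82 to 85, had a central C score of -0.265, or 0.543 of the mock value, and an F score of 1.05, the highest of the 12 control-called footprints described here. Its centre was at 52.3% of the accessibility of its flanks. In the knockout-called list the mt-Nd4l frame had 0 footprints, with an exact 95% Poisson upper limit of 12.4 per kb, above the 6.26 per kb of all 13 transcripts.

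No footprint of either list touched the 7 nt shared by the mt-Nd4l and mt-Nd4 frames. Control-called footprints covered 17.5% of the nucleotides of all 13 transcripts and knockout-called ones 11.9%, so most short stretches are untouched. The lists hold only footprints called significant, and an untouched stretch is not shown to be unbound. The control-called footprints nearest to the frame overlap lay on both sides, 36 nt before it and 44 nt after it, the latter in codons 18 to 22 of mt-Nd4. The nearest knockout-called footprint lay 20 nt after it, at codons 10 to 13 of mt-Nd4, between the overlap and the downstream control-called footprint. The knockout-called footprint next upstream on the same strand was 875 nt away, in mt-Co3. In the other bicistronic mRNA, mt-Atp8/mt-Atp6, whose frames share 43 nt, 1 control-called footprint (chrM:7965-7977, 13 nt, F score 0.513) touched the overlap and 0 knockout-called ones did. The overlap of mt-Atp8 and mt-Atp6 is the longer, and whether the junctions differ was not tested.

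The mt-Nd4 frame, which encodes one of the proton-pumping subunits, carried 9 control-called and 8 knockout-called footprints, 14.6% and 14.2% of its nucleotides. After the pair at its 5′ end, the control-called list continued with a footprint of 17 nt in codons 61 to 67 (chrM:10349-10365, central C score 0.052, F score 0.953). A footprint of 10 nt followed in codons 138 to 141 (chrM:10579-10588), with a central C score of -0.322, 0.477 of the mock value, and an F score of 0.807. The next covered 29 nt in codons 166 to 175 (chrM:10663-10691, central C score -0.006, F score 0.949). Of these 3, the middle one had the lowest central C score, while the others had central C scores near or above 0. All 3 were called by the contrast with their flanks, with centres at 47.6%, 40.3% and 47.5% of the accessibility of their flanks, in the order given. Over the same stretch the knockout-called list was empty, with 546 nt free of footprints between chrM:10205-10750, the longest gap between knockout-called footprints on the mRNA.

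The middle and the 3′ part of mt-Nd4 held most knockout-called footprints, 6 of 8 within the 404 nt of chrM:10751-11154. This span was chosen as the run with most knockout-called footprints within 500 nt, so its density follows in part from the choice. Of the 10 control-called footprints 2 lay wholly inside that span and another, at chrM:11148-11174, crossed its end. Whether the lists differ there was not tested. The knockout-called footprint that opens it covered 32 nt in codons 195 to 206 (chrM:10751-10782) and had a central C score of 0.000 and an F score of 1.76. A longer one, 36 nt in codons 252 to 264 (chrM:10921-10956), had a central C score of 0.007 and an F score of 1.79. Both are shallow, with centres at 88.1% and 89.4% of the accessibility of their flanks, and 117 and 120 are their places among the 124 knockout-called footprints when counted from the lowest F score. The following pair was deeper, with F scores of 1.24 for 28 nt in codons 304 to 313 (chrM:11076-11103) and 1.20 for 30 nt in codons 316 to 325 (chrM:11112-11141). Their central C scores were 0.026 and 0.027.

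Control-called footprints lay beside this run. One of 34 nt in codons 224 to 235 (chrM:10838-10871) had a central C score of -0.019 and an F score of 0.927. Another of 21 nt in codons 237 to 243 (chrM:10875-10895) had a central C score of -0.069 and an F score of 0.872. The 252 nt that follow, the longest stretch of the mRNA between control-called footprints, held 3 whole knockout-called footprints and the first nucleotides of a further one. Next came the 2 deepest control-called footprints of mt-Nd4l/mt-Nd4. The first covered 27 nt in codons 328 to 336 (chrM:11148-11174), with a central C score of -0.074, an F score of 0.555 and a centre at 27.7% of the accessibility of its flanks. The second covered 40 nt in codons 338 to 351 (chrM:11179-11218), with a central C score of -0.096, an F score of 0.584 and a centre at 29.2%. These ranked 16 and 20 of 178 and are separated by 4 nt.

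Close to the 3′ end of mt-Nd4, a knockout-called footprint of 39 nt in codons 401 to 414 (chrM:11368-11406, central C score 0.041, F score 1.5) was directly followed by a control-called one of 8 nt in codons 414 to 416 (chrM:11407-11414, central C score -0.143, F score 0.989). The last 130 nt of the mRNA were free of footprints in both lists.

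The lists met at few nucleotides. On mt-Nd4l/mt-Nd4, 3 of 10 control-called footprints (30.0%) shared at least 1 nt with a knockout-called one, against 31.2% of the 138 control-called footprints on all 13 mRNAs and rRNAs. Of the 8 knockout-called footprints 2 (25%) shared at least 1 nt with a control-called one, against 44.8% of 87. These shares lie near or below those of all transcripts, and with 3 and 2 footprints they say little about these mRNAs. In all, 14 nt lay inside footprints of both lists. The knockout-called footprint of 10 nt at chrM:10866-10875 (codons 234 to 237, central C score 0.015, F score 1.61) bridged 2 control-called ones, sharing 6 nt with the footprint of 34 nt before it and 1 nt with the footprint of 21 nt after it. The knockout-called footprint of 9 nt at chrM:11146-11154 (codons 327 to 330, central C score 0.040, F score 1.5) shared 7 nt with the deepest control-called footprint of the mRNA, which is 77.8% of the former and 25.9% of the latter. In all 3 pairs the knockout-called footprint was the shorter, and no pair shared as much as 50% of both footprints.

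The F scores of the lists on mt-Nd4l/mt-Nd4 did not overlap. The lists hold different sites, each scored on the track of its call. The authors selected them by F score and its change and filtered on the central C score. The scores below therefore describe the lists and do not compare the same sites between genotypes. The 10 control-called F scores had a median of 0.933 and lay between 0.555 and 1.05. The 8 knockout-called ones had a median of 1.5 and lay between 1.15 and 1.79. The same direction held for the whole lists, with medians of 0.826 (0.389 to 1.33) and 1.27 (0.252 to 1.88). An F score of at most 1 was found for 11 of 12 control-called footprints on both mRNAs (91.7%), against 81.9% of those on all 13 transcripts, and for 0 of 8 knockout-called ones, against 11.5%. Central C scores on mt-Nd4l/mt-Nd4 ran from -0.322 to 0.052 (median -0.072) in the control-called list and from 0.000 to 0.063 (median 0.027) in the knockout-called list. They were below 0 in 10 of 12 control-called footprints on both mRNAs (83.3%, exact 95% interval 51.6 to 97.9%), against 63.8% of those on all 13 transcripts. Among knockout-called ones it was 0 of 8 (exact 95% upper limit 36.9%), against 16.1%. Of the 14 knockout-called footprints below 0 on all 13 transcripts, 5 lay on mt-Rnr1 and 6 on mt-Rnr2. None lay on mt-Nd1, mt-Nd2, mt-Nd6, mt-Atp8/mt-Atp6, mt-Co3 or mt-Cytb, so having none was common among the mRNAs. In the control-called list the rRNAs also lay below the pooled share, with 4 of 9 on mt-Rnr1 and 7 of 22 on mt-Rnr2. The shares on these mRNAs differed from those of all transcripts by less than their counting intervals. In 2 of the 12 control-called and 2 of the 8 knockout-called footprints the central C score was within 0.01 of 0, as it was in 11.2% and 12.9% of the whole lists. Median lengths were 19 nt and 29 nt on mt-Nd4l/mt-Nd4, against 16 nt and 14 nt in the whole lists. The 8 knockout-called ones ran from 9 to 39 nt. Knockout-called medians of similar length were found on mt-Nd2 and mt-Co3 (30 nt each), mt-Cytb (26 nt) and mt-Co1 (25.5 nt). On the remaining transcripts with such footprints they lay between 9 nt (mt-Rnr1) and 20 nt (mt-Co2).

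**Figure D1:**
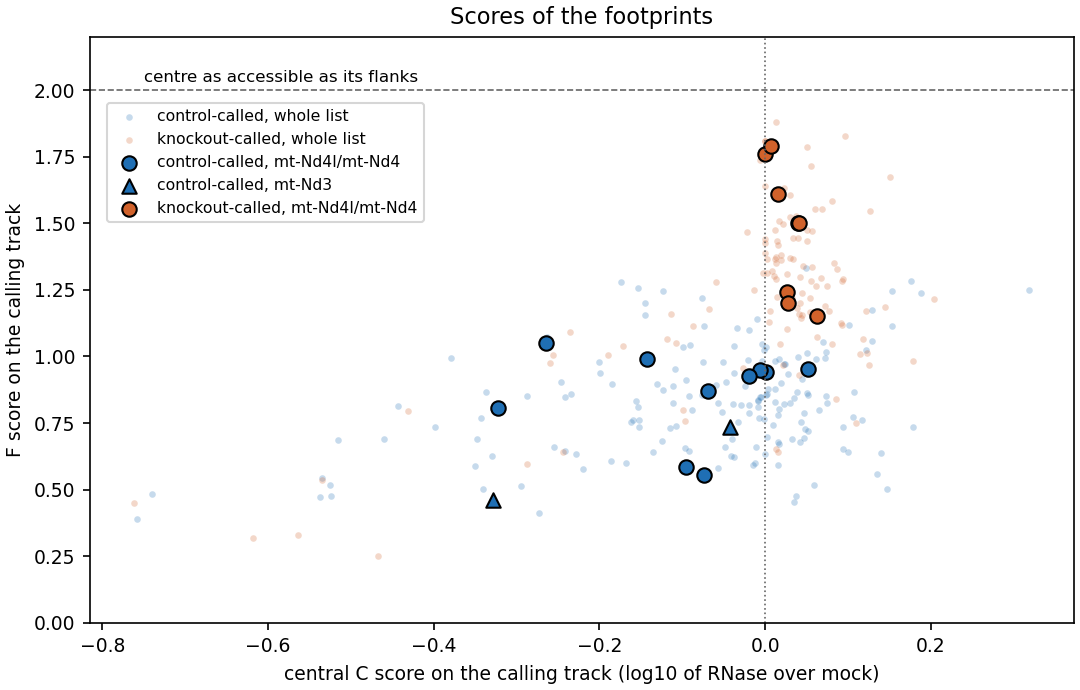
F score against central C score of every footprint, each on the track of its call. Small points are the 178 control-called (blue) and 124 knockout-called (orange) footprints and outlined symbols those on mt-Nd3 (triangles) and mt-Nd4l/mt-Nd4 (circles, with 2 knockout-called footprints at an F score of 1.5 on top of each other); the outlined orange circles all lie above the outlined blue symbols, at central C scores of 0 or above.

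Per length, both mRNAs were among the transcripts with few footprints. In the control-called list mt-Nd3 had 5.75 per kb (exact 95% Poisson interval 0.696 to 20.8) and mt-Nd4l/mt-Nd4 6.00 per kb (2.87 to 11), and 12 and 10 of the 13 transcripts were denser. In the knockout-called list mt-Nd4l/mt-Nd4 had 4.80 per kb (2.07 to 9.45), with 9 transcripts denser, and mt-Nd3 was the only transcript at 0. The intervals cover the counting of footprints only. Control-called footprints covered 12.6% of mt-Nd4l/mt-Nd4, against 17.5% of all 13 transcripts, and knockout-called ones 11.7%, against 11.9%. Taken as one, both mRNAs had 5.95 control-called footprints per kb (3.08 to 10.4) where the other 11 transcripts had 10.6 (8.84 to 12.6), and 3.97 knockout-called ones (1.71 to 7.82) where the others had 6.65 (5.27 to 8.29). The intervals overlap in both lists.

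For the other mRNAs of complex I, the control-called density lay near that of both mRNAs and the knockout-called density nearer to that of the other 11 transcripts, with intervals that overlap in both lists. These complex I mRNAs are themselves among the other 11 transcripts, so they are part of the density they are set beside. Together mt-Nd1, mt-Nd2, mt-Nd5 and mt-Nd6 had 29 control-called footprints, 6.69 per kb (4.48 to 9.60), and 28 knockout-called ones, 6.45 per kb (4.29 to 9.33). By transcript, control-called and knockout-called footprints numbered 7 and 8 on mt-Nd1, 6 and 5 on mt-Nd2, 11 and 12 on mt-Nd5, and 5 and 3 on mt-Nd6, which is encoded on the minus strand. As on mt-Nd4l/mt-Nd4, with 10 and 8, the lists differed by at most 2 footprints on each of these, while mt-Atp8/mt-Atp6 had 9 and 3. Such a difference was not limited to complex I, as mt-Rnr1 had 9 and 7. The counts were 27 and 12 on mt-Co1, 9 and 4 on mt-Co2, 11 and 5 on mt-Co3, 10 and 5 on mt-Cytb, and 22 and 15 on mt-Rnr2. All 13 transcripts together had 138 and 87. A difference of 2 is a larger part of a small count, as on mt-Nd6. Whether the balance of the lists differs between transcripts was not tested. The neighbours in the order of density did not differ beyond their intervals.

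**Figure D2:**
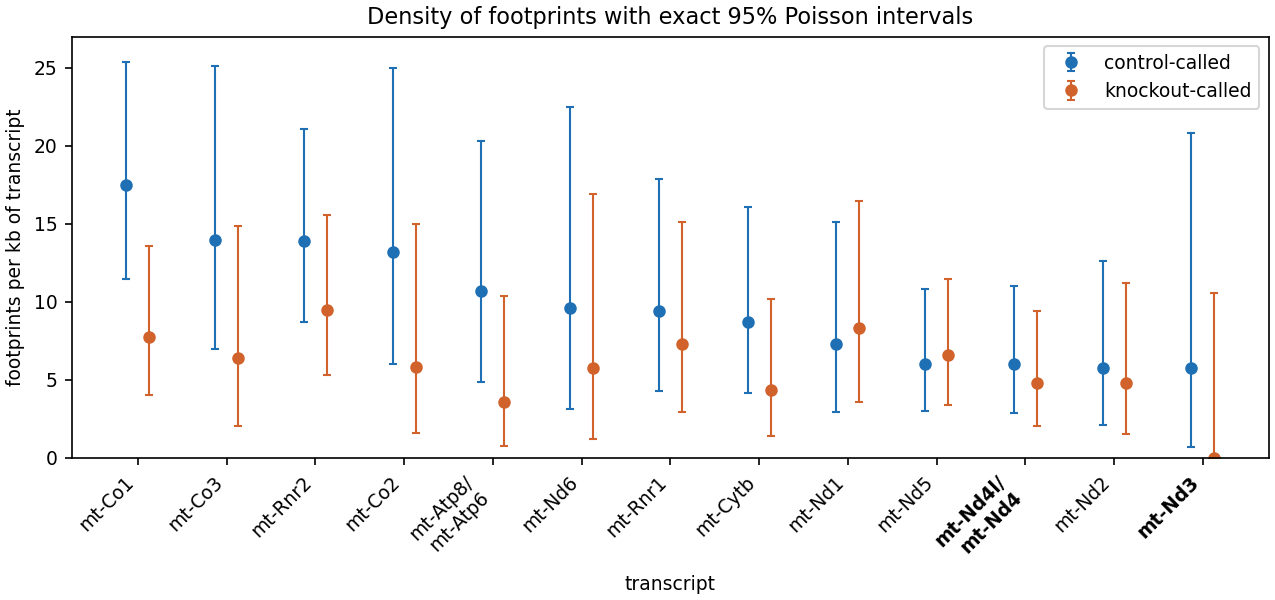
Footprints per kb of each of the 13 mRNAs and rRNAs, sorted by the control-called density. Points are control-called (blue) and knockout-called (orange) densities with exact 95% Poisson intervals that cover the counting of footprints only; mt-Nd4l/mt-Nd4 (6.00 and 4.80 per kb) and mt-Nd3 (5.75 and 0 per kb) stand at the low end, with intervals that overlap those of most other transcripts.

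The base composition of the footprints and of their 3 nt flanks was set beside that of the mRNA, as a description over few nucleotides with no test. The mt-Nd4l/mt-Nd4 mRNA is 33.9% A, 26.6% C, 10.0% G and 29.4% T. Its control-called footprints, 211 nt in all, were 37.4% A, 25.6% C, 15.2% G and 21.8% T, so they held more G and less T than the mRNA. Its knockout-called footprints, 195 nt, were 33.3% A, 25.1% C, 10.3% G and 31.3% T, close to the mRNA. The 60 nt that flank the control-called footprints held 15.0% A, 11.7% G and 73.3% pyrimidines, where the mRNA has 56.1% pyrimidines and the flanks on the other 11 transcripts had 34.7% A and 49.6% pyrimidines. The flanks of knockout-called footprints held 60.4% pyrimidines and, in 48 nt, 2.08% G, where those on the other 11 transcripts had 60.5% and 8.23%. On the other 11 transcripts the share of G was 16.4% in control-called footprints and 13.4% in the transcripts themselves, a difference in the same direction. It was 16.2% in the knockout-called footprints there, so the higher share of G on those transcripts was not limited to the control-called list. The share of T over these 11 transcripts pooled was 29.9% in control-called footprints and 29.3% in the transcripts. Nucleotides of one footprint are not independent, RNase A and RNase T1 cut by base, and the part of their preference in these shares was not tested. Of the 2 footprints on mt-Nd3, 22 nt in all, 22.7% was G, with 4 in the deeper footprint, against 10.9% of the mRNA.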

How the data were processed

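Footprints called in the heart, in *Lrpprc* controls and in knockouts, were analysed from the authors' deposited lists for mm10. The authors pooled technical replicates, removed adapters (cutadapt 1.10 per the submitters' processing notes), aligned with Bowtie2, normalized 5′ coverage to library size and combined each genotype's libraries into 1 track of C scores. The deposited values used are scores, the central C score and F score on the track of the call. The change in F score between genotypes, on the log2 scale, which the lists also hold, is the authors' own comparison and was not used. The false discovery rate was controlled by the authors against shuffled C scores.

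Footprints were assigned with GENCODE M21, and sequences were read from the RefSeq mitochondrial genome of GRCm38, in which 3 of 3 reading frames matched. Positions are counted from 1. Densities have exact Poisson and shares exact Clopper-Pearson intervals at 95%, which cover counting only. The counting steps were tested on simulated data. The transcripts, the lists and the rule for sequences were chosen with earlier results of these data known. Sequences are those of footprints on mt-Nd3, nearest to the frame overlap, within 3 nt of the other list, of lowest F score, and first or last on the mRNA. Alternatives were footprints of at least 10 nt, merging within 3 nt, other assignments, an F score of at most 1, and other overlaps, distances and base windows. Computations ran in Python 3.11.15 with SciPy 1.17.1 and NumPy 2.4.6, and plots were drawn in Matplotlib 3.10.9. The *Slirp* libraries and binding data were not analysed here.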

Additional observations from a re-analysis of the deposited data

How the results depend on the processing

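Of 96 alternative values, 90 stayed within the limits set for a change and 6 moved, all to 0. The 90 include knockout-called values on mt-Nd3 and in the mt-Nd4l frame that were 0 from the start. Removing or merging footprints could not change these. Keeping only footprints with an F score of at most 1 left 0 of 1 control-called footprint in the mt-Nd4l frame, and 0 of 8 knockout-called footprints on mt-Nd4l/mt-Nd4 and 0 of 8 in the mt-Nd4 frame, so that their covered share went from 11.7% to 0%. This follows from the limit itself, as the lowest knockout-called F score there is 1.15. Requiring a shared part of at least 50% of both footprints left 0 of 3 control-called and 0 of 2 knockout-called footprints with a partner, as no pair shared that much of the control-called footprint. A minimum length of 10 nt, merging, assignment by the middle nucleotide and footprints wholly inside a frame moved no count by over 1.5 times. With 1 track per genotype and no read counts, no value has an error between mice, depth could not be weighed, and no replicate could be left out. No paired analysis was possible because each genotype has 1 track.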

Other observations

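The strand opposite mt-Nd4l/mt-Nd4 held 5 footprints, and the strand opposite mt-Nd3 held 0. The control-called ones lay at chrM:10049-10065 (F score 0.854), chrM:10214-10249 (0.857) and chrM:10957-10966 (0.842), and the knockout-called ones at chrM:10041-10056 (1.22) and chrM:11503-11520 (1.15). The first control-called and the first knockout-called of these shared 8 nt opposite the mt-Nd4l frame. The control-called footprint of 36 nt at chrM:10214-10249 lay opposite all 15 nt of the control-called footprint at chrM:10218-10232 of mt-Nd4, and both had a central C score of 0.001.

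Among the tRNAs beside these mRNAs, mt-Tr carried 1 control-called footprint at chrM:9832-9839 (F score 0.994), and mt-Tg and mt-Th carried 0.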
